A study of Mus musculus with 4 samples.

Results

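The Hox cluster genes were taken as the rows of both deposited tables whose symbol is Hox, then a, b, c or d, then a number. This gave 38 genes of 22328, with 11 in Hoxa, 10 in Hoxb, 9 in Hoxc and 8 in Hoxd. Hoxd4 was not analysed here. Hox genes encode homeodomain transcription factors that give cells of the embryo their position along the head to tail axis. Within a cluster, genes of low paralog number lie at the 3′ end and are used toward the head, and genes of high number lie at the 5′ end and are used toward the tail. The hindbrain and spinal cord carry such a code, while the forebrain, which forms the hippocampus, develops in front of the Hox domain.

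Poly(A)-selected mouse RNA was sequenced from 4 samples, each the only library of its group. HT22-SUP and HT22-CON were cultures of HT22, an immortalised mouse line labelled as hippocampal neuron cells, grown with serum and given choline chloride at 70 µM (HT22-SUP) or 5 µM (HT22-CON) over 48 h. F1m-GCS and F1m-CON were hippocampi of offspring whose dams ate a diet holding 5 g/kg (F1m-GCS) or 1.1 g/kg (F1m-CON) of choline chloride. That diet ran over gestation after embryonic day 9, and the offspring of both groups then ate a basal diet and had behaviour tests at 2 months. The sources used here do not give the strain, or whether a hippocampus library is 1 animal or a pool. The study asks how choline supply relates to gene expression in this tissue, and the 2 kinds of material also allow HT22 cells to be set against hippocampus.

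Reads counted in genes numbered 13192007 in HT22-SUP, 18305096 in HT22-CON, 30265820 in F1m-GCS and 31175015 in F1m-CON. A gene at 0 reads could therefore hold up to 0.227, 0.164, 0.0991 and 0.0962 reads per 1e6 reads in genes, in that order, which is 3 reads of each total. These limits, and all intervals below, cover counting error only. The labels were checked against marker genes. The 8 markers of hippocampal neurons summed to 178 and 82.7 reads per 1e6 in HT22-SUP and HT22-CON, against 8310 in F1m-GCS and 8340 in F1m-CON. Prox1, which marks dentate granule cells, had 2 and 1 reads in the HT22 libraries and 5160 and 5186 in the hippocampus libraries. The 7 mesenchyme and fibroblast markers summed to 6200 and 7200 per 1e6 in HT22-SUP and HT22-CON, against 747 and 753 in F1m-GCS and F1m-CON. Most of the hippocampus sum was Thy1, with 16595 and 17477 reads in F1m-GCS and F1m-CON. Dcn was next there, with 2338 and 2089 reads. In the edgeR test described below, 8 of 8 hippocampal neuron markers fell in HT22 cells. So did all 16 markers of interneurons, astrocytes, oligodendrocytes, microglia, endothelium and choroid plexus. Of the mesenchyme and fibroblast markers 6 of 7 rose, and Thy1 fell. The hippocampus libraries thus carried the markers of their label, while the HT22 libraries held low neuronal and high mesenchymal marker sums. The marker sums of brain cells were higher in HT22-SUP than in HT22-CON for glia as well as neurons. They were 121 against 50.4 reads per 1e6 for astrocytes, mostly Slc1a2, and 16.9 against 8.58 for oligodendrocytes. Microglia had 1.52 against 0.656 and choroid plexus 2.65 against 0.983, on few reads. These lay mostly in Cx3cr1, with 17 reads in HT22-SUP and 5 in HT22-CON, and in Ttr, with 29 and 5. Single markers also went the other way. C1qa had 2 and 3 reads in HT22-SUP and HT22-CON, P2ry12 1 and 4, Folr1 5 and 12, and the neuronal marker Tubb3 147 and 317.

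Hox reads were nearly all in the HT22 cells. The 38 genes together had 2743 reads in HT22-SUP and 4362 in HT22-CON, against 5 in F1m-GCS and 2 in F1m-CON. Per 1e6 reads in genes this was 208 (95% exact Poisson interval 200 to 216) in HT22-SUP and 238 (231 to 245) in HT22-CON, against 0.165 (0.0536 to 0.386) in F1m-GCS and 0.0642 (0.00777 to 0.232) in F1m-CON. The summed level in hippocampus was 0.0514% of that in HT22 cells. For comparison, among the 5413 genes with a mean of at least 50 reads per 1e6 in HT22 cells, the 1st percentile of the same percentage was 0.235% and the median 51.8%. This sets a sum of 38 genes beside single genes. The highest Hox gene, Hoxd8, had 39.4 reads per 1e6 in HT22-SUP and 52.4 in HT22-CON, a mean below 50, so no Hox gene is among the 5413. In bulk RNA, fewer cells of a type and less RNA per cell cannot be told apart.

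**Figure D1:**
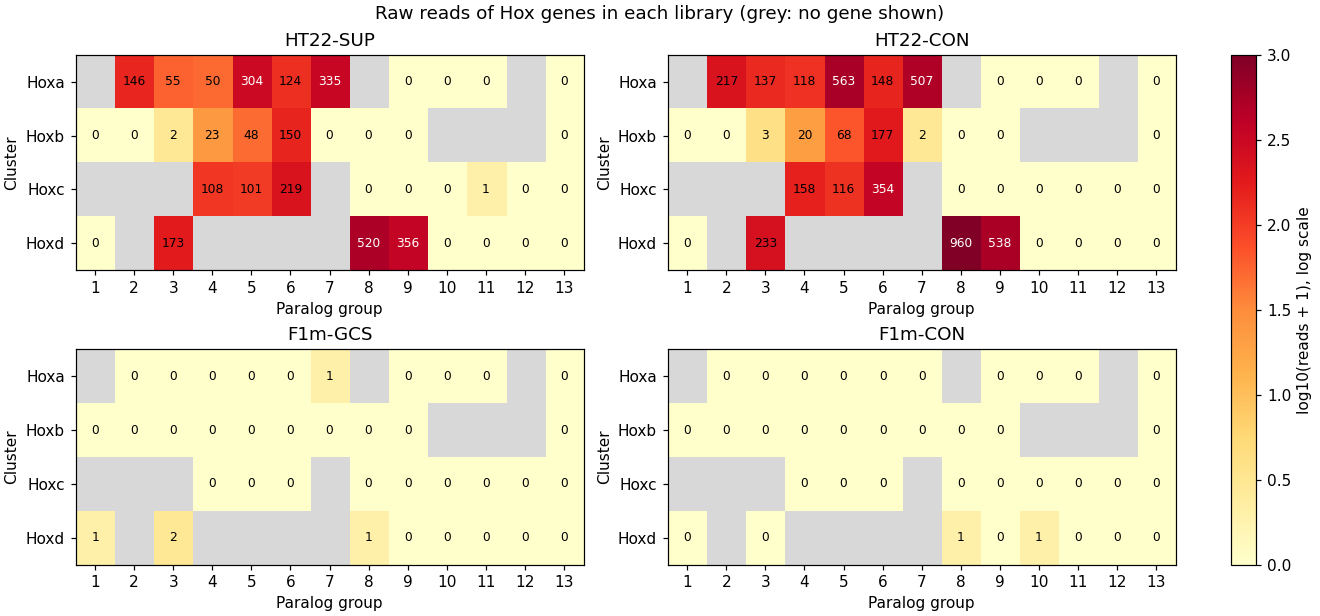
Raw reads of Hox genes, 1 panel per library, with clusters as rows and paralog groups as columns. Colour is log10(reads + 1), the printed number is the read count, and grey marks combinations with no gene shown. The HT22 panels hold filled blocks that stop at Hoxa7, Hoxb6, Hoxc6 and Hoxd9, while no cell of the hippocampus panels is above 2 reads.

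Of the 38 genes, 14 reached 50 reads in HT22-CON, 13 of these also in HT22-SUP, and none did in hippocampus. Another 2, Hoxb4 among them, peaked between 10 and 49 reads. The 5 genes Hoxb3, Hoxb7, Hoxc11, Hoxd1 and Hoxd10 peaked between 1 and 9 reads, and 17 genes were at 0 reads in all 4 libraries. Over all 22328 genes, 62.8% had at least 50 reads in a library and 19.0% had 0 reads throughout, so silence was more frequent among Hox genes, at 44.7%, than in the tables as a whole. At least 50 reads in both HT22 libraries, with at most 2 in both hippocampus libraries, was found for 13 of 38 Hox genes, or 34.2%. The background for that combination was 0.439% of all genes, 98 in number.

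The Hoxa cluster, on chromosome 6 in mm10, was read from Hoxa2 through Hoxa7. Levels between genes are given here as reads per kilobase of coding length per 1e6 reads in genes. Hoxa2, which sets the identity of the second pharyngeal arch, had 146 reads in HT22-SUP and 217 in HT22-CON and levels of 9.89 and 10.6, against 0 reads in F1m-GCS and F1m-CON. Hoxa3, which acts in the pharyngeal region that forms thymus and parathyroid, had 55 and 137 reads in HT22-SUP and HT22-CON and levels of 3.13 and 5.62. Its neighbour Hoxa4 had 50 and 118 reads and levels of 4.42 and 7.51. These 2 genes were the lowest of the 6 Hoxa genes with at least 50 reads, and both had 0 reads in the hippocampus libraries.

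The higher levels of Hoxa lay in the middle of the cluster. Hoxa5, required for normal lung development in mice, had 304 reads in HT22-SUP and 563 in HT22-CON, at levels of 28.3 and 37.8, with 0 in both hippocampus libraries. Hoxa6 had 124 and 148 reads and levels of 13.4 and 11.6 in HT22-SUP and HT22-CON. Hoxa7, a gene of the trunk region, had 335 and 507 reads and levels of 36.8 and 40.1, against 1 read in F1m-GCS and 0 in F1m-CON. The next gene toward the 5′ end, Hoxa9, had 0 reads in all 4 libraries. So did Hoxa10, Hoxa11 and Hoxa13, genes of the posterior trunk, the reproductive tract and the limb. Between Hoxa7 and Hoxa9, whose gene models lie 1243 bases apart, the level over both HT22 libraries was at least 332-fold lower in Hoxa9, with its 0 reads taken as 3.

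The promoters on either side of that edge, and of the edge in Hoxd described below, are shown because each pair places a gene read in both HT22 libraries beside one with no HT22 read. Each is 250 bases before to 50 after the start of the gene, from RefSeq on GRCm38.p6, written 5′ to 3′ on the strand of the gene, with CG dinucleotides in capitals. The RefSeq start lies inside the gene model of the deposited tables for all 4 genes, and further inside for Hoxa7 and Hoxa9 than for Hoxd9 and Hoxd10. Hoxa7 is chr6:52218524-52218823 and Hoxa9 chr6:52227321-52227620, both on the minus strand. Hoxd9 is chr2:74697513-74697812 and Hoxd10 chr2:74691641-74691940, both on the plus strand.
Hoxa7: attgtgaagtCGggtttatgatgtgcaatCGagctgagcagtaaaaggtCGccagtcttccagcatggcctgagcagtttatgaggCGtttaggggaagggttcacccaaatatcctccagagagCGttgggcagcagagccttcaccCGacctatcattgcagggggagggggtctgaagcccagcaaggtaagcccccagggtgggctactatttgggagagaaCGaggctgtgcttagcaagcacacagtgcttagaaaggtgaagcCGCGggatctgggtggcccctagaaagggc
Hoxa9: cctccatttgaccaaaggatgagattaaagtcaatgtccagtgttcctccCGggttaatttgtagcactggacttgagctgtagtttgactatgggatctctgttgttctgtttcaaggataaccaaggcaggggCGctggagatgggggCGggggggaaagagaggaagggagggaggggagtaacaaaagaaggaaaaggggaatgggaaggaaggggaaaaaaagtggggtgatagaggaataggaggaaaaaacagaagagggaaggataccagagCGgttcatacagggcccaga
Hoxd9: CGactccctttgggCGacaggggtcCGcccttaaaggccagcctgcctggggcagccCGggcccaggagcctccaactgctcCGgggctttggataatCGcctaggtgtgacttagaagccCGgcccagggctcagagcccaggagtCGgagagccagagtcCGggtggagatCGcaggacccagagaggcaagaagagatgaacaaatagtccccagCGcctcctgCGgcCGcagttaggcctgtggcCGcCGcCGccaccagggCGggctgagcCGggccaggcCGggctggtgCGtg
Hoxd10: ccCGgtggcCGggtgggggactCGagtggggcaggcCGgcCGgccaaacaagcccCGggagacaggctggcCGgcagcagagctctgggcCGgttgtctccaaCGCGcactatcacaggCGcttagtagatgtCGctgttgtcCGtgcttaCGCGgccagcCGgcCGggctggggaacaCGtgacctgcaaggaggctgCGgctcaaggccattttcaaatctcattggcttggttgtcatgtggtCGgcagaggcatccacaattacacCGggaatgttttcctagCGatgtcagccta
The Hoxa7 window holds 9 CG dinucleotides and the Hoxa9 window 4, while Hoxd9 holds 20 and Hoxd10 22. The gene with reads thus has the larger number in one pair and the smaller in the other. Over the 21 Hox genes that matched an entry, the median was 14, against 7 over 27025 genes. The median was 17 in the 10 Hox genes with at least 10 HT22 reads, over a range of 6 to 29, and 13 in the other 11, over a range of 4 to 45. The letters TGATNNAT, a joint site of Pbx and Hox proteins read on both strands, occurred in 1 of those 10, in 2 of the 11 and in 9.04% of all promoters of this length. Only 1 entry per gene was counted. Among the 11, Hoxa10 and Hoxd11 have a further entry with 21 and 25 CG dinucleotides, beside the 12 and 4 counted. With the further entries counted in their place, the median of the 11 would lie above 17, so the order of the medians depends on this choice. The further entry of Hoxd11 also holds the letters TGATNNAT.

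Hoxb, on chromosome 11 from 96194316 to 96368256 in mm10, was read over a shorter stretch. Hoxb6, active in trunk and lateral plate mesoderm, had 150 reads in HT22-SUP and 177 in HT22-CON, at levels of 16.8 and 14.3. Hoxb5 had 48 and 68 reads at levels of 4.49 and 4.59, and Hoxb4 had 23 and 20 reads at levels of 2.32 and 1.45. All 3 had 0 reads in F1m-GCS and F1m-CON. On the 5′ side Hoxb7 had 0 reads in HT22-SUP and 2 in HT22-CON. The level of Hoxb6 was 158-fold that of Hoxb7 over both HT22 libraries, with a counting interval of 43.5 to 1310. On the 3′ side Hoxb3 had 2 and 3 reads, and Hoxb4 was 14.9-fold above it (5.90 to 48.1). Hoxb1 and Hoxb2, used in the hindbrain, Hoxb8, Hoxb9 and Hoxb13, a gene of the tail and prostate, were at 0 reads throughout.

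In Hoxc, on chromosome 15 from 102921103 to 103036843, reads covered the 3 genes at the 3′ end. Hoxc4 had 108 reads in HT22-SUP and 158 in HT22-CON, at levels of 10.3 and 10.9. Hoxc5 had 101 and 116 reads at levels of 11.4 and 9.47. Hoxc6, used around the level of the forelimb, had 219 and 354 reads at levels of 23.4 and 27.3. All 3 were at 0 in both hippocampus libraries. Hoxc8 and Hoxc9, which mark brachial and thoracic motor neurons of the spinal cord, had 0 reads in every library, as did Hoxc10, Hoxc12 and Hoxc13. Hoxc11 had 1 read, in HT22-SUP. From Hoxc6 to Hoxc8 the level over both HT22 libraries was at least 197-fold lower.

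Hoxd, on chromosome 2 from 74668310 to 74765141, held the gene with the highest level. Hoxd8 had 520 reads in HT22-SUP and 960 in HT22-CON, at levels of 45.3 and 60.3, against 1 read in F1m-GCS and 1 in F1m-CON. Hoxd9, which acts in lumbar spinal cord and forelimb, had 356 and 538 reads in the HT22 libraries, at levels of 26.5 and 28.8, and 0 in hippocampus. Hoxd3, used in the neck vertebrae, had 173 and 233 reads at levels of 10.1 and 9.78, against 2 reads in F1m-GCS and 0 in F1m-CON. Hoxd1 had 1 read, in F1m-GCS, and Hoxd10 had 1 read, in F1m-CON, and both were at 0 in HT22 cells. Hoxd11, Hoxd12 and Hoxd13, genes of the distal limb and genital tubercle, were at 0 throughout. The level over both HT22 libraries was at least 299-fold lower in Hoxd10 than in Hoxd9, and at least 103-fold lower in Hoxd1 than in Hoxd3.

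**Figure D2:**
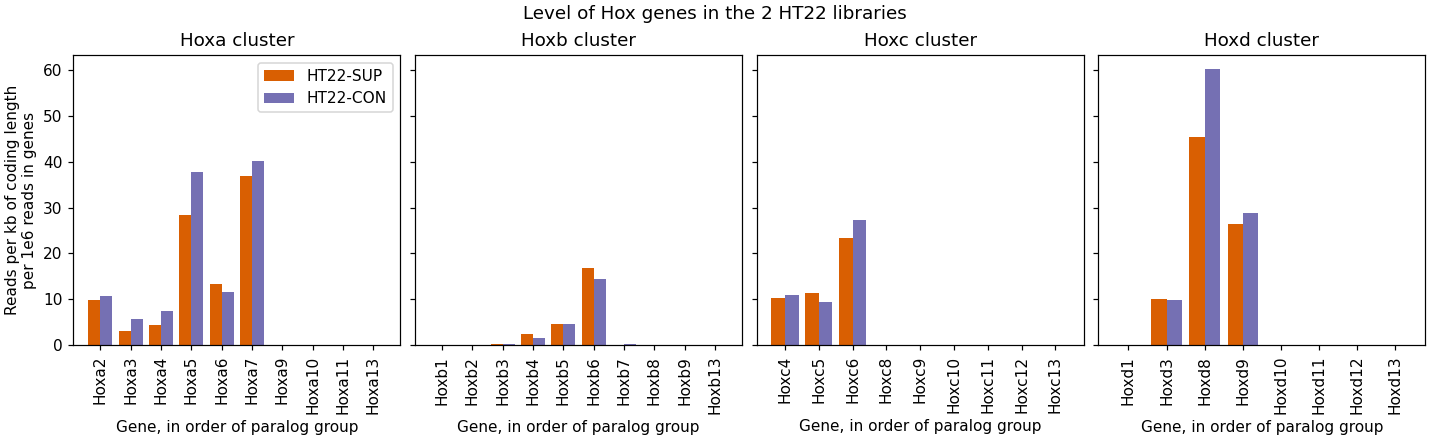
Level of Hox genes, in reads per kilobase of coding length per 1e6 reads in genes, in HT22-SUP and HT22-CON, with genes in order of paralog group within each cluster. Bars are single libraries without an error. In Hoxa, Hoxb, Hoxc and Hoxd the filled stretch ends at Hoxa7, Hoxb6, Hoxc6 and Hoxd9.

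Read by paralog group, the HT22 cells filled the middle of the series and left its 5′ end empty. Groups 10 to 13 had 1 read over 12 genes in HT22-SUP and 0 in HT22-CON, against 0 in F1m-GCS and 1 in F1m-CON. Groups 4 to 9, with 18 genes, held 89.8% of the summed level in HT22-SUP and 89.9% in HT22-CON. Groups 1 to 3, with 8 genes, held 10.2% and 10.1%. Groups 5 and 6 were the groups in which every gene analysed had at least 48 reads in both HT22 libraries. In group 7 Hoxa7 was read and Hoxb7 had at most 2 reads, in group 8 Hoxd8 was read and Hoxb8 and Hoxc8 were at 0, and in group 9 Hoxd9 was read while Hoxa9, Hoxb9 and Hoxc9 were at 0. The edge therefore lay at a different paralog number in each of the clusters except Hoxb and Hoxc, which both ended at group 6.

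By cluster, Hoxa held 39.4% of the summed level in HT22-SUP and 40.9% in HT22-CON, and Hoxd held 32.9% and 35.0%. Hoxc held 18.2% and 16.8%, and Hoxb 9.55% and 7.30%. The order of the clusters by this level was the same in both cultures. In plain reads Hoxa and Hoxd were about equal, with 1042 against 1049 reads in HT22-SUP and 1733 against 1731 in HT22-CON, so their order rests on the division by length. Among the 14 genes with at least 50 reads, the mean level over the cultures ran from 4.37 for Hoxa3 to 52.8 for Hoxd8, with Hoxa7 at 38.5, Hoxa5 at 33.1 and Hoxd9 at 27.6 next below. Hoxd8 lay above Hoxa7 and Hoxa7 above Hoxa5 in both cultures. With 1 library a culture, the order of neighbours has no replicate check.

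The genes flanking the clusters differed in where they were read. Their reads are given as raw counts, not scaled to library size. Reads in genes numbered 13192007 in HT22-SUP and 18305096 in HT22-CON, against 30265820 in F1m-GCS and 31175015 in F1m-CON. Raw counts that look equal or lower in HT22 cells, as for Mtx2 and Smug1, thus do not give the order of levels between the materials. Evx1 and Evx2, homeobox genes beyond the 5′ ends of Hoxa and Hoxd, had 0 reads in all 4 libraries. Mtx2, beyond the 3′ end of Hoxd, had 1291 and 2033 reads in HT22-SUP and HT22-CON and 1345 and 1523 in F1m-GCS and F1m-CON. Skap2, beyond the 3′ end of Hoxa, had 547 and 942 reads against 382 and 422, and Smug1, beyond that of Hoxc, had 256 and 442 against 552 and 645. Calcoco1, beyond the 5′ end of Hoxc, had 861 and 1512 against 3096 and 3306. Skap1, beyond the 3′ end of Hoxb, had 0 reads in both HT22 libraries, against 48 in F1m-GCS and 36 in F1m-CON, whereas Ttll6, beyond its 5′ end, had 316 and 402 reads against 69 and 58. Inside Hoxa, 5730596B20Rik, a gene of the opposite strand, had 31 and 30 reads in HT22-SUP and HT22-CON and 0 in both hippocampus libraries. Inside Hoxb, Gm53 had 1 and 2 reads in HT22-SUP and HT22-CON and 0 in both hippocampus libraries.

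HT22 cells were set against hippocampus with the quasi-likelihood test of edgeR over all genes, with the 2 cultures and the 2 tissues as the libraries of each material. The labels give no replicates, so this spread holds the choline conditions and is not one between repeated samples of a group. Of the 38 genes 16 passed the filter on low counts, and all 16 had a Benjamini-Hochberg adjusted p under 0.05 and were higher in HT22 cells. Those 16 passed through their HT22 reads, so their number is a description, beside 39.5% of 15116 genes called higher in HT22 and 44.9% called lower. Their adjusted p ran from 2.68e-07 for Hoxd8 to 4.00e-04 for Hoxb4 in edgeR. With the 0 reads of hippocampus taken as 3 over both libraries, Hoxd9 was at least 581-fold higher in HT22 cells, Hoxa5 at least 564-fold, Hoxc6 at least 373-fold and Hoxb6 at least 213-fold. For Hoxd8 the ratio was 1440 (counting interval 399 to 11900) on 2 hippocampus reads, for Hoxa7 1640 (294 to 65000) on 1 and for Hoxd3 396 (109 to 3280) on 2. All hippocampus reads of Hoxa7 and Hoxd3 were in F1m-GCS, and their folds moved with the library left out. The edgeR log2 fold of Hoxa7 was 10.17, and 9.31 without F1m-CON. That of Hoxd3 was 8.32, and 7.38 without F1m-CON. Without F1m-GCS, where hippocampus was at 0 and the fitted value depends on the prior count, they were 12.06 for Hoxa7 and 11.02 for Hoxd3. Cell culture against tissue, and all handling that goes with it, cannot be told apart from the material.

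Cofactors that Hox proteins bind DNA with were present in both materials. Of the 9 genes of the Pbx, Meis and Pknox families, 3 rose and 3 fell in HT22 cells in the same edgeR test, with a median log2 fold of 0.18 beside -0.13 for all genes tested and 39.5% higher and 44.9% lower among them. Pbx2 had levels of 58.7 and 58.3 in HT22-SUP and HT22-CON against 46.1 and 47.1 in F1m-GCS and F1m-CON, and did not pass the test, with an adjusted p of 0.0759 in edgeR. Meis1 rose, at 6.29 and 9.34 in HT22-SUP and HT22-CON against 1.87 and 1.35 in F1m-GCS and F1m-CON, and Pbx3 and Pknox1 rose as well. Without the HT22-CON library 5 of the 9 were called higher. Pknox2 fell to 1.49 and 1.46 in HT22-SUP and HT22-CON, against 29.1 and 30.5 in F1m-GCS and F1m-CON, and Meis2 and Pbx4 fell.

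Of the 27 Polycomb and Trithorax genes, whose products keep Hox genes off or on, 13 were higher and 6 lower in HT22 cells, with a median log2 fold of 0.27. Over all genes tested the shares were 39.5% higher and 44.9% lower. The number of higher genes was near that background, while the 6 of 27 lower were a smaller share than the 44.9%. Eed and Suz12, subunits of a Polycomb complex that marks histone H3, both rose. Eed had 1226 and 1847 reads in HT22-SUP and HT22-CON against 520 and 456 in F1m-GCS and F1m-CON, a log2 fold of 2.51. Suz12 had levels of 84.8 and 102 in the HT22 libraries against 22.5 and 19.4 in hippocampus. Wdr5, a subunit of the Trithorax-group complexes, rose by a log2 fold of 1.31. Cbx7, a Polycomb subunit that binds this mark, fell to 9.33 and 12.9 in the HT22 libraries, against 93.8 and 96.9 in hippocampus.

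Among 17 tested genes of retinoic acid signalling and other regulators upstream of Hox, 5 were higher and 9 lower in HT22 cells, with a median log2 fold of -2.39. Both counts were near the shares over all genes tested, 39.5% higher and 44.9% lower, while the median lay below that of all genes at -0.13. Rarg, a retinoic acid receptor, rose with levels of 142 and 138 in HT22-SUP and HT22-CON, against 8.04 and 8.53 in F1m-GCS and F1m-CON. Aldh1a1, an enzyme that makes retinoic acid, fell to 3 reads in each HT22 library, against 1952 and 2376 in F1m-GCS and F1m-CON. Gdf11, a ligand that sets posterior Hox expression in the mouse trunk, rose with 67.2 and 64.5 against 21.3 and 25.9. The Cdx genes, homeobox activators of trunk Hox genes, had 1 read in all, of Cdx1 in F1m-GCS.

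Forebrain transcription factors were mostly lower in HT22 cells. Of 17 tested, 15 fell, with a median log2 fold of -5.81, beside 44.9% lower among all genes tested. Zbtb20, which specifies hippocampal pyramidal neurons, fell by 2.64 on the log2 scale. Neurod6, of cortical and hippocampal pyramidal neurons, had 10 and 4 reads in HT22-SUP and HT22-CON against 7723 and 8406 in F1m-GCS and F1m-CON, and Bcl11b, of granule cells and other forebrain neurons, had 8 and 3 against 5741 and 6476. Emx2, of the dorsal telencephalon and hippocampus, had levels of 19.9 and 26.4 in HT22-SUP and HT22-CON against 27.0 and 29.0 in F1m-GCS and F1m-CON, with an adjusted p of 0.0836 in edgeR. Dlx2, of interneuron progenitors, had 135 and 245 reads against 178 and 231 and was the 1 member called higher, a call lost without either hippocampus library. Markers of hindbrain and spinal cord neurons, among them Slc6a5, Pax2 and Lbx1, had 0 reads in both HT22 libraries. In hippocampus Pax2 had 11 reads in each library and the other markers 0 or 1.

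Of 12 tested transcription factors of limb and mesenchyme, 10 rose and 2 fell in HT22 cells, with a median log2 fold of 5.04, beside 39.5% higher among all genes tested. Prrx1, of limb and facial mesenchyme, had levels of 595 and 652 in HT22-SUP and HT22-CON against 10.6 and 11.6 in F1m-GCS and F1m-CON. Twist2 had 443 and 414 against 2.19 and 3.19, and Foxf2 97.3 and 136 against 3.57 and 3.64. Among 11 tested homeobox genes of the same class as Hox, 5 were higher and 6 lower in HT22 cells, near the shares over all genes. Meox1, of somites, rose by a log2 fold of 2.37. En1, of the midbrain, dermis and limb ectoderm, had 438 and 756 reads in HT22-SUP and HT22-CON against 0 in F1m-GCS and 1 in F1m-CON. Msx1 had 0 reads in both HT22 libraries against 611 and 663 in F1m-GCS and F1m-CON. The part of cell type in the Hox reads was not tested.

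**Figure D3:**
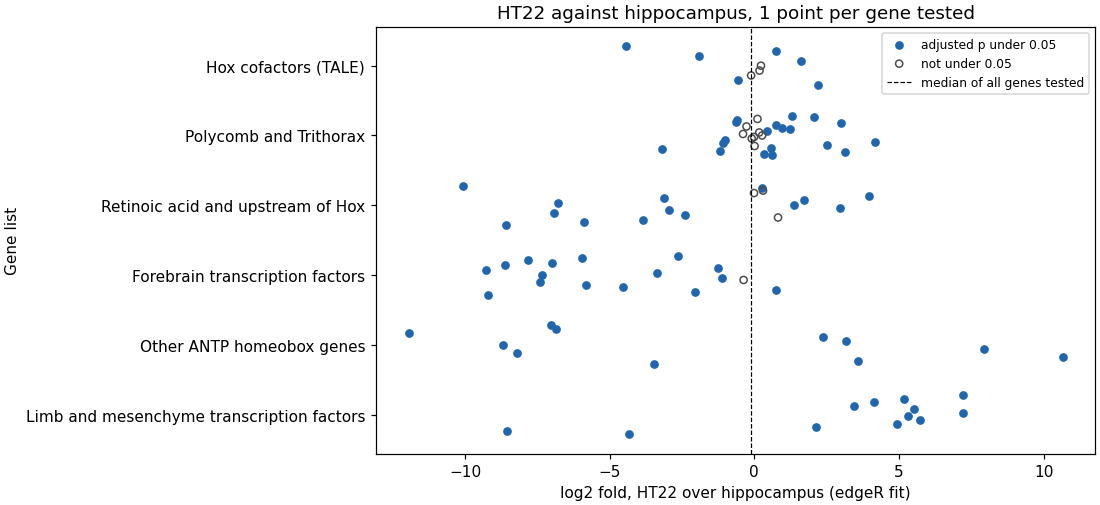
Fitted log2 fold of HT22 over hippocampus for each tested gene of 6 lists, 1 point per gene, filled where the edgeR adjusted p is under 0.05, with the median of all genes tested at -0.13 as a dashed line. Forebrain factors lie mostly to the left, limb and mesenchyme factors mostly to the right, and Hox cofactors on both sides.

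Between the cultures, no Hox gene with 50 reads or more reached a 2-fold difference. Among the 14 Hox genes measured in a culture, meaning 50 reads or more, 0 were at least 2-fold higher or lower in HT22-SUP than in HT22-CON. The background was 2.75% of 10854 measured genes, with 2.22% higher and 0.525% lower in HT22-SUP. Each group held 1 library, so the differences have no replicate check and no test. Summed over the 38 genes, the log2 ratio of HT22-SUP to HT22-CON was -0.18 (95% counting interval -0.25 to -0.12). The median over the 14 genes was -0.10, beside -0.05 for all measured genes. Of the 14, 10 lay below 0, which was true of 58.1% of all measured genes.

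The counting interval lay wholly below 0 for 4 genes and held 0 for the other 10. With TMM-adjusted library sizes, Hoxa3 had 4.19 reads per 1e6 in HT22-SUP and 7.45 in HT22-CON, a log2 ratio of -0.81 (-1.31 to -0.37). Hoxa4 had 3.81 and 6.42 and a log2 ratio of -0.74 (-1.26 to -0.27). The ratios of these 2 neighbours lay below -0.48, the 5th percentile of all measured genes, while both intervals included -0.48. That percentile is over genes of all read numbers from 50 up, and genes of similar read number were not set beside them. Hoxa5 had 23.1 and 30.6 reads per 1e6 and Hoxd8 39.6 and 52.2, both with a log2 ratio of -0.40. Their intervals were -0.61 to -0.20 and -0.56 to -0.24. The highest ratio of the 14 was that of Hoxc5, at 0.28 (-0.11 to 0.68), followed by Hoxb6 at 0.24 and Hoxa6 at 0.23. Hoxd8 and Hoxa3, 2 of the 14, have a p-value and false discovery rate under 0.05 in the authors' deposited table, beside 19.5% of the same 10854 genes. Their log2 values in the authors' deposited table are -0.24 and -0.63, and no replicate library stands behind them.

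**Figure D4:**
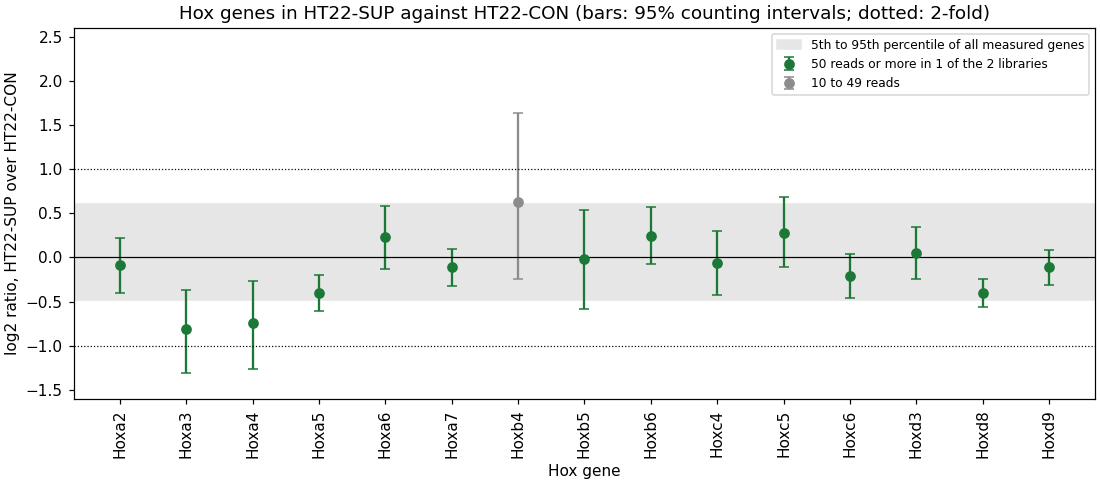
Log2 ratio of HT22-SUP over HT22-CON for Hox genes with at least 10 reads. Bars are 95% counting intervals, the grey band runs from the 5th to the 95th percentile of all measured genes, and dotted lines mark 2-fold. All points lie within 2-fold. The points of Hoxa3 and Hoxa4 lie below the band and that of Hoxb4, on 23 and 20 reads, just above it. The intervals of these genes reach into the band.

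In the hippocampus no comparison of Hox genes between diets could be made at this depth. None of the 38 genes had 50 reads in either library. Of 13392 measured genes, 0.396% were at least 2-fold higher or lower in F1m-GCS than in F1m-CON, with 0.224% higher and 0.172% lower. The reads were 1 of Hoxa7, 1 of Hoxd1, 2 of Hoxd3 and 1 of Hoxd8 in F1m-GCS, and 1 of Hoxd8 and 1 of Hoxd10 in F1m-CON. The log2 ratio of the 2 sums was 1.38 with a counting interval of -1.23 to 4.77.

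Several members share bases with other genes, and the library kit does not mark strand. In GENCODE M21, exons of an antisense gene cover 65.5% of the coding bases of Hoxb3, 53.4% of Hoxb2, 75.5% of Hoxa11 and 12.4% of Hoxb5. Exons on the same strand, of a joint transcript named Gm28230, cover 95.3% of Hoxd3, and others cover 23.9% of Hoxa2, 23.1% of Hoxd11, 16.2% of Hoxc10 and 10.2% of Hoxd10. Reads there could be split, added or left out by the counting, so the values of these genes are uncertain, and the gene model of Hoxd3 also spans the place of Hoxd4. The coding bases of Hoxa7, Hoxa9, Hoxb6, Hoxb7, Hoxc6, Hoxc8 and Hoxd9, which lie at the edges, share none with other genes.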

How the data were processed

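mRNA was enriched by poly(A) selection and read from both ends. The authors' pipeline, per the series' design text, used Trim Galore for trimming, TopHat2 on mm10 (at most 2 mismatches, mapping quality 4 or more), HTSeq for counting and edgeR for testing. The submitters' processing notes add CASAVA 1.8. Per the file headers, the deposited tables hold raw counts per gene. The deposited RPKM values scale them by gene length and by 1e6 uniquely mapped reads, and served only as a check. The deposited log2 fold changes, p-values and false discovery rates come from the authors' edgeR runs.

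The groups held 1 library each. The p-values of HT22 against hippocampus thus set that difference against a spread between libraries of a material that differ in choline. HT22 and hippocampus were compared with edgeR 4.0.16 in R 4.3.3 (TMM, filterByExpr, glmQLFit, glmQLFTest, Benjamini-Hochberg over all genes tested). Ratios within a material used TMM library sizes, a prior count of 2 and the exact conditional 95% interval. Measured means at least 50 reads in 1 of the libraries compared, and ratios within a material were counted at 2-fold or more. In the comparison of materials, called means an edgeR adjusted p under 0.05. One member and some list genes are counted in the totals but not reported here. The text names the other members, the neighbours of the clusters and up to 4 genes per list with the highest level. Meis1, Pbx3, Pbx4, Pknox1, Pknox2, the Cdx genes, Emx2, Dlx2 and Prox1 fall outside that rule and were named after their values were seen. The 15 listed RNA genes of the clusters were not analysed here. Alternatives included DESeq2 1.42.0. The members and lists were chosen with earlier results of these data known. The edgeR fit and the ratio intervals were tested on simulated data. Sums, ratios and intervals were computed with Python 3.11.15 and scipy 1.17.1.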

Additional observations from a re-analysis of the deposited data

How the results depend on the processing

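The 16 Hox genes called higher in HT22 cells were the same 16 with total counts, with DESeq2 size factors, with choline supply as a covariate, with the DESeq2 test and without each library in turn, where the number called was 16 in each of 4 fits. Without a filter on low counts Hoxb3 was called as well, which made 17. The largest adjusted p of the 16 was 7.89e-03, for Hoxb4 without the F1m-CON library. A fit without 1 library assumes that the lone library varies like the others. The median log2 fold of all genes was -0.13, and -0.03 with total counts and -0.34 with DESeq2. With a minimum of 200 reads in place of 50, 7 Hox genes were measured, and 13 after reads were scaled down to the shallowest library. In plain reads, without division by length, the shares of the HT22-CON Hox total were 39.7% for Hoxa, 6.19% for Hoxb, 14.4% for Hoxc and 39.7% for Hoxd, and in HT22-SUP Hoxd (38.2%) passed Hoxa (38.0%). Between the cultures the main count of Hox genes at 2-fold was 0. Given that, a minimum of 200 reads, a whole interval beyond 2-fold and a prior count of 10 could only return 0. The count was 0 under all 8 alternatives. One of these, which adjusts ratios for GC content and coding length, was added after the data were seen. With it the median of the 14 genes was -0.01, 7 lay below 0, and Hoxa3 had -0.75, Hoxa4 -0.69, Hoxd8 -0.33 and Hoxa5 -0.26. The alternatives for F1m-GCS against F1m-CON gave no value, since no Hox gene reached even 10 reads there. No paired analysis was possible because the labels give no replicate numbers and each group holds 1 library. Depth limits the silent genes to the floors given above, which cover counting error only. Hoxb2, Hoxa11, Hoxd11 and Hoxc10 share coding bases with other genes, so reads left out could put them above these floors.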
